A study of Rattus norvegicus with 16 samples.

Results

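The genes described here are 35 targets of the hypoxia-inducible factors: 22 genes of glucose metabolism (glucose uptake, the enzymes of glycolysis, the control of glycolysis, and lactate production and export) and 13 other known targets. They were taken by symbol from an array table of rat lung. A gene was represented by the probe set annotated to that symbol alone, and where a gene had several, by the one with the highest mean over all 16 arrays. All 35 were measured, out of 14506 genes kept in this way. After 2 weeks of hypoxia 14 of the 35 were higher than in normoxic lung and 0 were lower. By the same test 3.21% of all genes were higher and 2.43% lower. The count of 14 changed when single arrays were left out.

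Glycolysis splits glucose into pyruvate in the cytosol and yields ATP without oxygen. When oxygen falls, the alpha subunits of the hypoxia-inducible factors escape hydroxylation and breakdown, pair with their beta subunit, and bind short DNA elements near their targets. These targets include glucose and lactate transporters, most enzymes of glycolysis, the kinase that shuts pyruvate out of the mitochondria, mitophagy receptors, and enzymes that modify collagen. In the lung, chronic hypoxia is the classical model of pulmonary hypertension, in which small arteries thicken and vascular cells shift towards glycolysis.

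The study compared the lungs of male Sprague-Dawley rats in 4 groups of 4 animals, with 1 array per animal, to ask how far estradiol, acting through its receptors, alters the lung's response to hypoxia. Normoxic rats breathed room air. Hypoxic rats spent 2 weeks in a hypobaric chamber at 362 mmHg, which corresponds to 10% oxygen at sea level. The estradiol group had the same exposure and a subcutaneous pump that released 75 µg/kg of 17β-estradiol per day for 3 weeks, starting 1 week before hypoxia. The fulvestrant group had the pump and the exposure, and was also injected daily with 3 mg/kg of fulvestrant, named ICI 182,780 in the labels, a nonselective antagonist of the estrogen receptors. All hypoxic groups share the exposure, and neither drug was tested in normoxia or fulvestrant without estradiol. Whether the controls carried pumps is not given in the sources used here. RNA came from homogenised right lung whose vessels had been flushed with saline, so a change can lie in any cell type, and a shift in the share of a cell type cannot be told apart from a shift in RNA per cell.

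The tissue carried the markers of lung: Sftpc, surfactant protein C, lay between 13.83 and 13.99 on every array, and the probes of 10 of 11 epithelial markers were brighter than those of 95% of genes. The exception was Foxj1, a marker of ciliated cells, at the 58.9th percentile of brightness, which also depends on the probe. Array medians ran from 7.69 to 7.77. One array of the normoxia group, array 4, has a title that says normoxia and a treatment field that says hypoxia. On the first principal component it lay at -19.7, with the other normoxia arrays between -20.8 and -12.0 and all hypoxic arrays between -2.05 and 16.3. Estradiol arrays 2 and 3 stood apart on the second component, at -25.4 and -22.3 against -5.19 to 7.85 for the other arrays. Where the count of members called changes without these arrays, both counts are given.

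Promoter sequences are printed for the 6 members that rose most with hypoxia and whose RefSeq window (GRCr8, 250 bases before to 50 bases after the gene start, the first window listed for each gene) held the core of a hypoxia response element. The letters searched were ACGTG and GCGTG, on both strands, so that capitals read CACGT or CACGC where the match lies on the opposite strand. The capitals CACGTG hold ACGTG on both strands and were counted as 2 matches. Each stretch runs 5′ to 3′ on the gene's strand, with the matches and up to 15 bases on either side of the outermost ones, ending before the gene start.

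Mgarp (chr2:137590502-137590536, minus strand, bases -242 to -208 from the start): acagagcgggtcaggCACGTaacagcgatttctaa

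Aldoc (chr10:63715421-63715532, plus strand, bases -123 to -12): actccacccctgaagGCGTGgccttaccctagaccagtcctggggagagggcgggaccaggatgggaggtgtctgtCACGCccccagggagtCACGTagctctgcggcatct

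Bhlhe40 (chr4:143174215-143174345, plus strand, bases -235 to -105): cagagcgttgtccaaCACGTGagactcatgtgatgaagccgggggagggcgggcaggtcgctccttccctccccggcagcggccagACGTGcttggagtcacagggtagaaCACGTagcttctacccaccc

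Bnip3 (chr1:203155033-203155085, minus strand, bases -123 to -71): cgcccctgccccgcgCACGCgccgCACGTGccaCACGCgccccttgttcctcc

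Slc2a1 (chr5:138002354-138002521, plus strand, bases -168 to -1): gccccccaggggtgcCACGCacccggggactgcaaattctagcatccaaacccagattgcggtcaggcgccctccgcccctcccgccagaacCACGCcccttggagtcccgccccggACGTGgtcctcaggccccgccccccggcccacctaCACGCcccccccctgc

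Pfkl (chr20:10663735-10663824, plus strand, bases -230 to -141): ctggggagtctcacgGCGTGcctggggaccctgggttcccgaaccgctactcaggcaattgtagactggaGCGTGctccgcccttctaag

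The densest of these is Bnip3, with 4 matches in a stretch of 53 bases. A window was found for 30 of the 35 members, and 22 of these (73.3%) held at least 1 match. Of all 27457 windows, 42.9% did, and of the 11951 windows of genes on the array, 52.1%. The members' windows were also richer in G and C, with a median of 63.2% against 58.0% for genes on the array. Windows with a match belonged to 11 of the 14 members that rose with hypoxia and to 11 of the 16 that did not pass the test, so these letters were found in both. Among glucose genes 13 of 20 windows held a match, and among the other targets 9 of 10. Slc16a3, Tpi1 and Aldoa rose without a match in this window. Ldha had 6 matches, the most of any member. A match is a description of letters and shows no binding, and Slc2a3, Ndrg1, Ero1a, Pgk1 and Bnip3l have no sequence printed or counted here.

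Hypoxia raised 10 of the 22 glucose metabolism genes and 4 of the 13 other targets, and lowered none. The 14 were the mitochondrial protein gene Mgarp, the aldolase Aldoc, the lactate exporter Slc16a3, Tpi1, Bhlhe40, Bnip3, the glucose transporter Slc2a1, Pfkl, Pdk1, Ldha, Eno1, P4ha1, Aldoa and Gapdh, in order of size, from a log2 difference of 2.01 (4.04-fold) to one of 0.17 (1.12-fold). A gene was called where limma's moderated test gave a Benjamini-Hochberg adjusted p below 0.05 over all 14506 genes. At that threshold 3.21% of all genes were called higher and 2.43% lower. The median log2 difference was 0.22 over the 35 members, 0.20 over the glucose genes and 0.29 over the other targets, against 0.03 over all genes. In 17 members (11 glucose genes and 6 others) every hypoxia array lay above every normoxia array, which held for 6.74% of all genes, while 0 members had all arrays lower, which held for 5.33%.

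**Figure D1:**
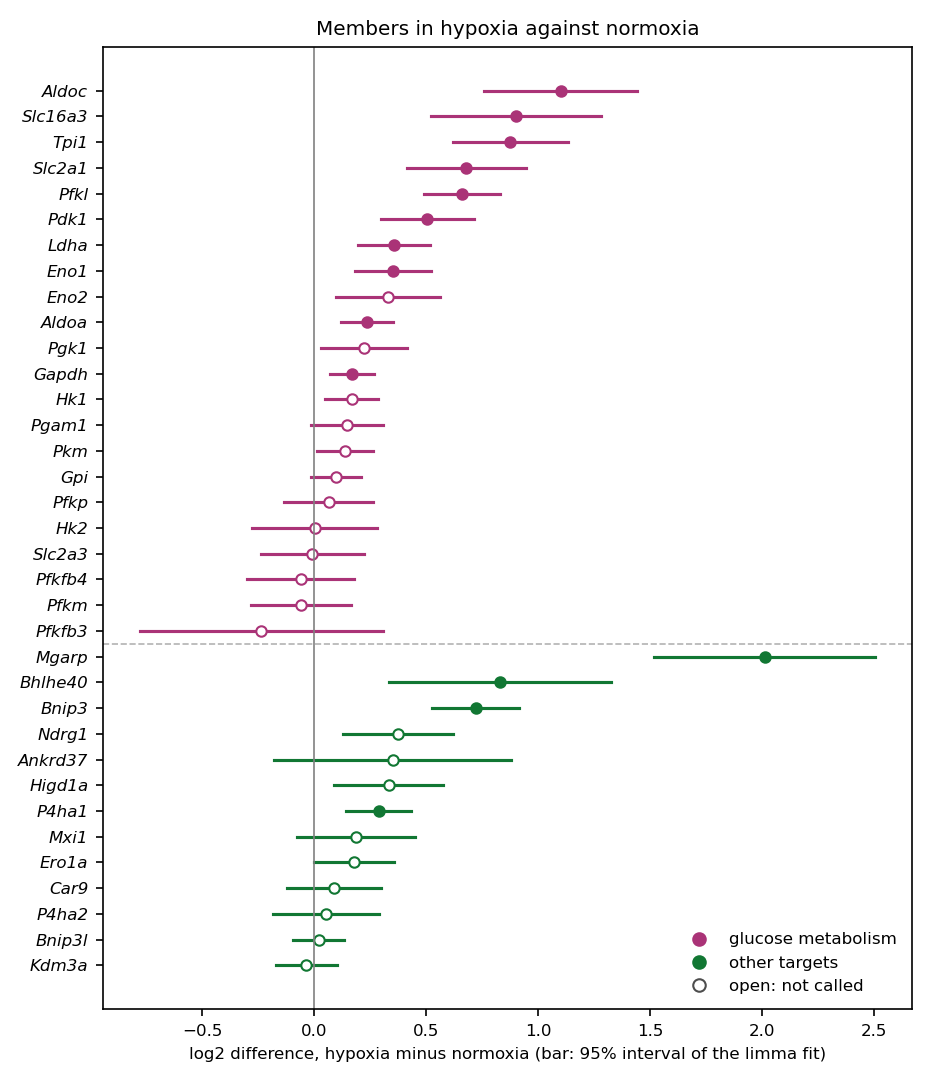
Log2 difference between hypoxia and normoxia for each of the 35 genes (points, with the 95% interval of the limma fit), glucose metabolism above the dashed line and other targets below it. Filled points passed an adjusted p of 0.05. The filled points run from Gapdh at 0.17 to Mgarp at 2.01, and the lowest point, Pfkfb3 at -0.24, has an interval that crosses 0.

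Glucose enters most cells through facilitative transporters. Slc2a1 encodes GLUT1, the widespread basal glucose transporter. Its log2 values were 10.45, 10.52, 10.59 and 10.65 on normoxia arrays 1 to 4 and 11.48, 11.22, 11.02 and 11.21 on hypoxia arrays 1 to 4. It read 11.20, 11.71, 11.28 and 10.98 on the estradiol arrays and 10.83, 11.11, 11.01 and 11.03 on the fulvestrant arrays. All 12 hypoxic arrays lay above all normoxia arrays, with estradiol array 2 the highest. The hypoxia-normoxia difference was 0.68 ± 0.13 (SE) in log2, or 1.60-fold, with an adjusted p of 0.00435. Slc2a3, which encodes the high-affinity transporter GLUT3, read 8.44 ± 0.09 (SD, n = 4) in normoxia and 8.44 ± 0.22 in hypoxia, a difference of -0.01 with a 95% interval from -0.24 to 0.22.

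The first enzymes of the pathway phosphorylate and rearrange glucose. Hk1, the constitutive hexokinase, differed by 0.17 ± 0.06 in log2 (adjusted p = 0.0981), with all hypoxia arrays above normoxia. Hk2, the regulated hexokinase that can bind mitochondria, read 8.05, 8.13, 8.13 and 8.44 on the normoxia arrays and 8.43, 8.04, 8.15 and 8.14 on the hypoxia arrays. The 2 groups overlapped fully for Hk2, and the difference was 0.00 with a 95% interval from -0.28 to 0.28. Gpi, glucose-6-phosphate isomerase, differed by 0.10 ± 0.05 (adjusted p = 0.328).

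Phosphofructokinase sets the pace of glycolysis, and 1 of its 3 subunit genes passed the test. Pfkl, the liver-type subunit, read 9.93, 9.90, 10.10 and 10.24 in normoxia and 10.81, 10.71, 10.68 and 10.62 in hypoxia. With estradiol it read 10.82, 10.66, 10.66 and 10.93, and with fulvestrant 10.51, 10.64, 10.61 and 10.60. Every hypoxic array was above every normoxia array, and normoxia array 4 was the highest of its group. Pfkl rose by 0.66 ± 0.08 in log2, 1.58-fold (adjusted p = 1.72e-04). The platelet-type Pfkp differed by 0.06 ± 0.09 (adjusted p = 0.753) and the muscle-type Pfkm by -0.06 ± 0.11 (adjusted p = 0.804).

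Aldolase and triosephosphate isomerase, the next steps, rose. Aldoc, aldolase C, the isoform best known from brain, read 8.23, 8.22, 8.33 and 8.49 in normoxia and 9.70, 9.22, 9.08 and 9.67 in hypoxia. On the estradiol arrays it read 9.69, 9.07, 9.18 and 9.32, and on the fulvestrant arrays 9.12, 9.70, 9.23 and 9.21. The lowest hypoxic array was 9.07 and the highest normoxia array 8.49, so the gap between them was wider than the spread within normoxia. Aldoc rose by 1.10 ± 0.16, or 2.15-fold (adjusted p = 7.62e-04), the most of any glucose gene here. Aldoa, the main aldolase of most tissues, read 12.61, 12.62, 12.61 and 12.68 in normoxia and 12.93, 12.87, 12.79 and 12.87 in hypoxia. Its other arrays read 12.89, 12.86, 12.85 and 12.92 with estradiol and 12.70, 12.91, 12.80 and 12.90 with fulvestrant. The groups did not overlap, but the increase was 0.23 ± 0.05, or 1.18-fold (adjusted p = 0.0183). Tpi1, triosephosphate isomerase, read 10.36, 10.52, 10.75 and 10.73 in normoxia and 11.72, 11.33, 11.24 and 11.58 in hypoxia. Under estradiol it read 11.25, 10.96, 11.32 and 11.31, and under fulvestrant 11.12, 11.32, 11.46 and 11.44. Estradiol array 2 was the lowest hypoxic array for Tpi1 and still lay above normoxia. Tpi1 rose by 0.88 ± 0.12, or 1.84-fold (adjusted p = 5.03e-04).

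**Figure D2:**
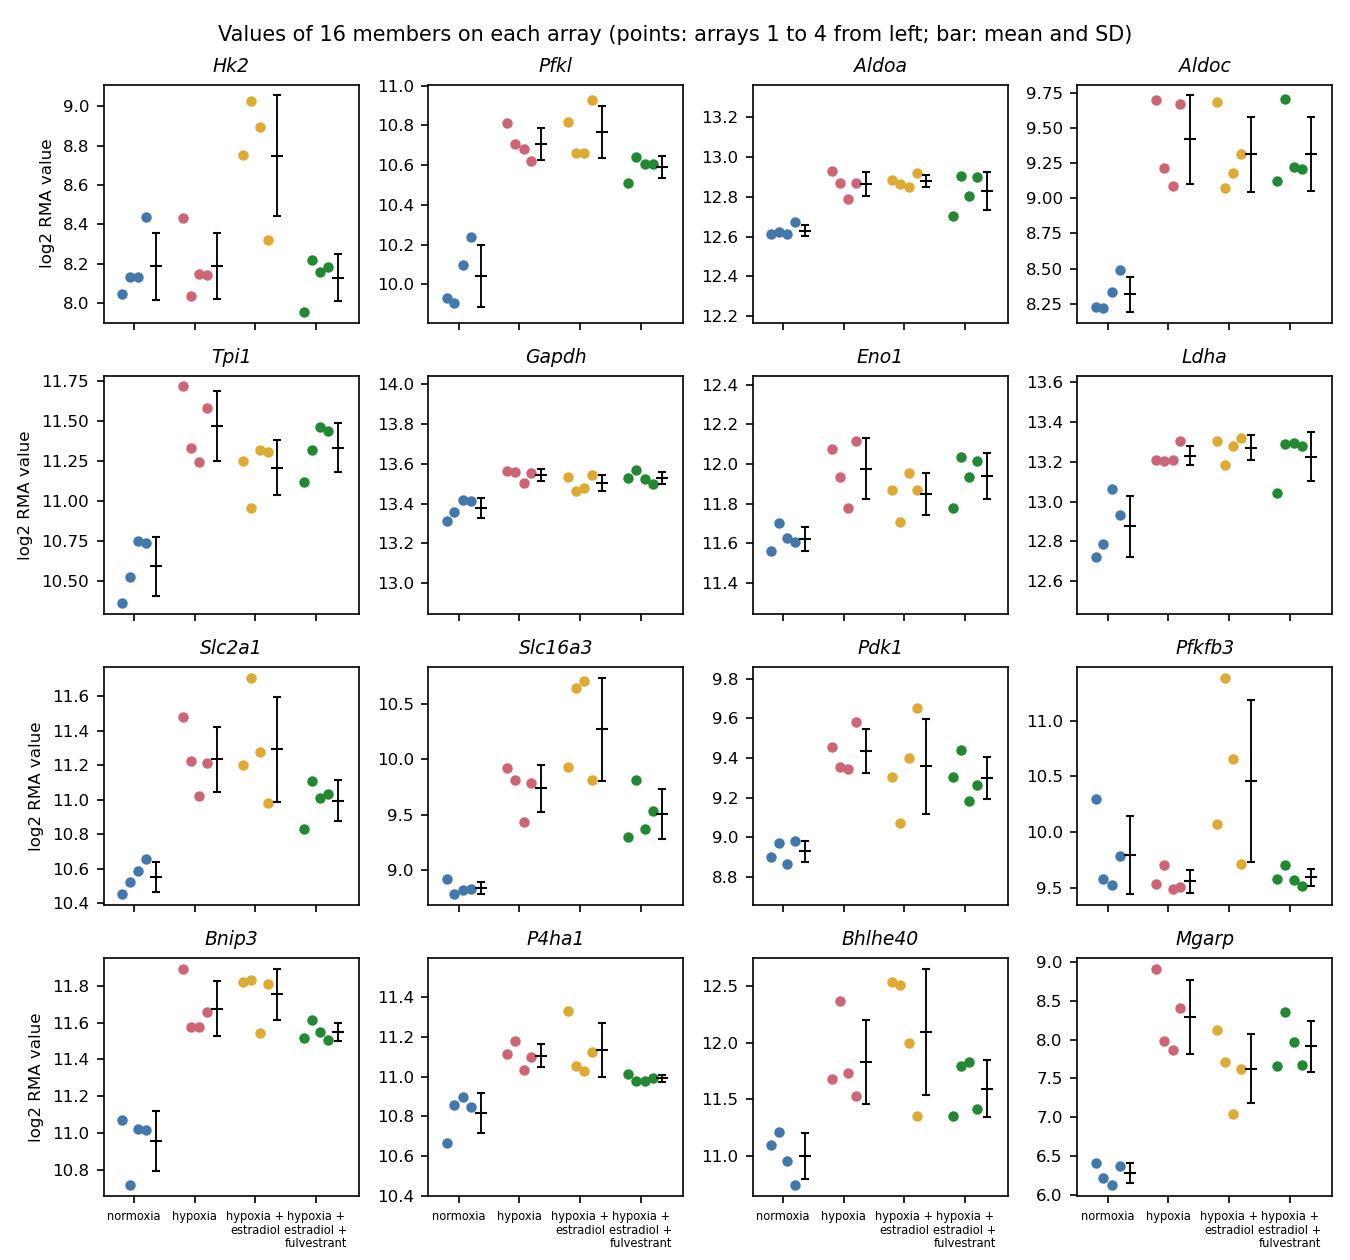
Log2 value on each array (points, arrays 1 to 4 of each group from left) with the group mean and SD (bars) for the 14 members that rose with hypoxia and for Hk2 and Pfkfb3. The vertical scale differs between panels and does not start at 0. In the Mgarp panel all hypoxic arrays lie above the highest normoxia array at 6.40, and in the Hk2 and Pfkfb3 panels estradiol arrays 2 and 3 stand highest.

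The second stage of glycolysis, which makes ATP and pyruvate, had 2 of 6 members called. Gapdh, glyceraldehyde-3-phosphate dehydrogenase, often used as a reference gene, read 13.31, 13.36, 13.42 and 13.41 in normoxia and 13.57, 13.56, 13.50 and 13.55 in hypoxia. With estradiol it read 13.54, 13.46, 13.48 and 13.54, and with fulvestrant 13.53, 13.57, 13.52 and 13.50. The normoxia arrays lay below all others by a small margin. The difference was 0.17 ± 0.05, or 1.12-fold (adjusted p = 0.0437), and all 16 probe sets of Gapdh gave differences between 0.15 and 0.20. In a limma fit of all probe sets, the adjusted p-values of these 16 ran from 0.0399 to 0.109, with 0.0596 for the chosen one. They were read on the same arrays and do not count as repeats. Several of these probe sets may read its processed copies in the genome, which the table does not separate. Eno1, the ubiquitous enolase, read 11.56, 11.71, 11.63 and 11.61 in normoxia and 12.08, 11.94, 11.78 and 12.12 in hypoxia. It read 11.87, 11.71, 11.96 and 11.87 with estradiol and 11.78, 12.04, 11.93 and 12.02 with fulvestrant. All hypoxic arrays lay above normoxia, although estradiol array 2 and normoxia array 2 agree to 2 decimals. Eno1 rose by 0.35 ± 0.08, or 1.28-fold (adjusted p = 0.0174). Its neuronal relative Eno2 differed by 0.33 ± 0.11 (adjusted p = 0.0938), with hypoxia array 3 at 8.08 inside the normoxia range of 8.04 to 8.25. Pgk1, phosphoglycerate kinase, differed by 0.22 ± 0.09 (adjusted p = 0.175). Pgam1, phosphoglycerate mutase, differed by 0.15 ± 0.08 (adjusted p = 0.30). Pkm, pyruvate kinase, differed by 0.14 ± 0.06 (adjusted p = 0.203).

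Pyruvate can become lactate or enter the mitochondria, and the 3 members that act at this branch all rose. Ldha, the lactate dehydrogenase subunit that favours lactate, read 12.72, 12.79, 13.06 and 12.93 in normoxia and 13.21, 13.21, 13.21 and 13.31 in hypoxia. With estradiol it read 13.30, 13.18, 13.28 and 13.32, and with fulvestrant 13.05, 13.29, 13.29 and 13.28. Fulvestrant array 1 was the single hypoxic array that fell within the normoxia range. Ldha rose by 0.36 ± 0.08, or 1.28-fold (adjusted p = 0.0107). Slc16a3 encodes MCT4, which exports lactate from glycolytic cells. It read 8.92, 8.79, 8.82 and 8.83 in normoxia and 9.92, 9.82, 9.43 and 9.78 in hypoxia. The estradiol arrays read 9.93, 10.64, 10.70 and 9.81 and the fulvestrant arrays 9.30, 9.82, 9.38 and 9.54. The normoxia arrays were tightly grouped and all others higher, with estradiol arrays 2 and 3 far above the rest. Slc16a3 rose with hypoxia by 0.90 ± 0.18, or 1.87-fold (adjusted p = 0.00696). Pdk1, the pyruvate dehydrogenase kinase that keeps pyruvate out of the citric acid cycle, read 8.90, 8.97, 8.87 and 8.98 in normoxia and 9.46, 9.35, 9.34 and 9.58 in hypoxia. It read 9.30, 9.07, 9.40 and 9.65 with estradiol and 9.31, 9.44, 9.19 and 9.27 with fulvestrant. Every hypoxic array lay above normoxia, and estradiol array 2 came closest to it. Pdk1 rose by 0.50 ± 0.10, or 1.42-fold (adjusted p = 0.00593).

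Pfkfb3 and Pfkfb4, bifunctional enzymes that make or remove fructose-2,6-bisphosphate, the activator of phosphofructokinase, did not pass the test with hypoxia. Pfkfb3 read 10.29, 9.58, 9.52 and 9.78 in normoxia and 9.53, 9.71, 9.49 and 9.50 in hypoxia, a difference of -0.24 ± 0.26 (adjusted p = 0.656). Normoxia array 1 stood above the other normoxia arrays and every hypoxia array. Pfkfb4 differed by -0.06 ± 0.11 (adjusted p = 0.816).

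Among the 13 other targets, the gene with the largest change of all 35 was Mgarp, which encodes a protein of the mitochondrial membrane. It read 6.40, 6.22, 6.12 and 6.37 in normoxia and 8.91, 7.99, 7.86 and 8.41 in hypoxia. With estradiol it read 8.12, 7.71, 7.04 and 7.63, and with fulvestrant 7.66, 8.35, 7.97 and 7.67. The normoxia arrays formed a narrow band far below the rest. Mgarp rose by 2.01 ± 0.23, or 4.04-fold (adjusted p = 1.33e-04). Bnip3, a receptor that marks mitochondria for removal by autophagy, read 11.07, 10.71, 11.02 and 11.01 in normoxia and 11.89, 11.58, 11.58 and 11.66 in hypoxia. It read 11.82, 11.83, 11.55 and 11.81 with estradiol and 11.52, 11.62, 11.55 and 11.51 with fulvestrant. Again no hypoxic array overlapped normoxia. Bnip3 rose by 0.72 ± 0.09, or 1.65-fold (adjusted p = 2.64e-04), and its second probe set by 0.71. Its relative Bnip3l, with a like function, differed by 0.02 ± 0.05, with a 95% interval from -0.09 to 0.13. Higd1a, a small protein of the inner mitochondrial membrane, differed by 0.33 ± 0.11 (adjusted p = 0.104), with all hypoxia arrays above normoxia.

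Bhlhe40, a transcriptional repressor that also feeds into the circadian clock, read 11.10, 11.21, 10.95 and 10.74 in normoxia and 11.68, 12.37, 11.73 and 11.53 in hypoxia. It read 12.54, 12.51, 11.99 and 11.35 with estradiol and 11.35, 11.79, 11.83 and 11.41 with fulvestrant. The spread within each hypoxic group was wide, and no array overlapped normoxia. Bhlhe40 rose by 0.83 ± 0.23, or 1.78-fold, and its adjusted p of 0.0486 was the closest to the threshold of the 14. Mxi1, an antagonist of Myc, differed by 0.19 ± 0.12 (adjusted p = 0.438), and Kdm3a, a histone demethylase, by -0.03 ± 0.06 (adjusted p = 0.813).

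P4ha1, a catalytic subunit of the enzyme that hydroxylates prolines of collagen, read 10.67, 10.86, 10.90 and 10.85 in normoxia and 11.11, 11.18, 11.03 and 11.10 in hypoxia. With estradiol it read 11.33, 11.05, 11.03 and 11.13, and with fulvestrant 11.02, 10.98, 10.98 and 10.99. All hypoxic arrays lay above normoxia, the fulvestrant arrays by the least. P4ha1 rose by 0.29 ± 0.07, or 1.22-fold (adjusted p = 0.0215), while the alternative subunit P4ha2 differed by 0.05 ± 0.11 (adjusted p = 0.839). Ndrg1, a stress-responsive gene, differed by 0.37 ± 0.12 (adjusted p = 0.0698), again without overlap. Ero1a, which oxidises protein disulfide isomerase in the endoplasmic reticulum, differed by 0.18 ± 0.08 (adjusted p = 0.25), and Ankrd37, an ankyrin repeat protein, by 0.35 ± 0.25 (adjusted p = 0.47). Car9, the carbonic anhydrase best known from hypoxic tumours, read 6.76 ± 0.10 (SD, n = 4) in normoxia and 6.85 ± 0.15 in hypoxia, a difference of 0.09 ± 0.10 (adjusted p = 0.671).

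**Figure D3:**
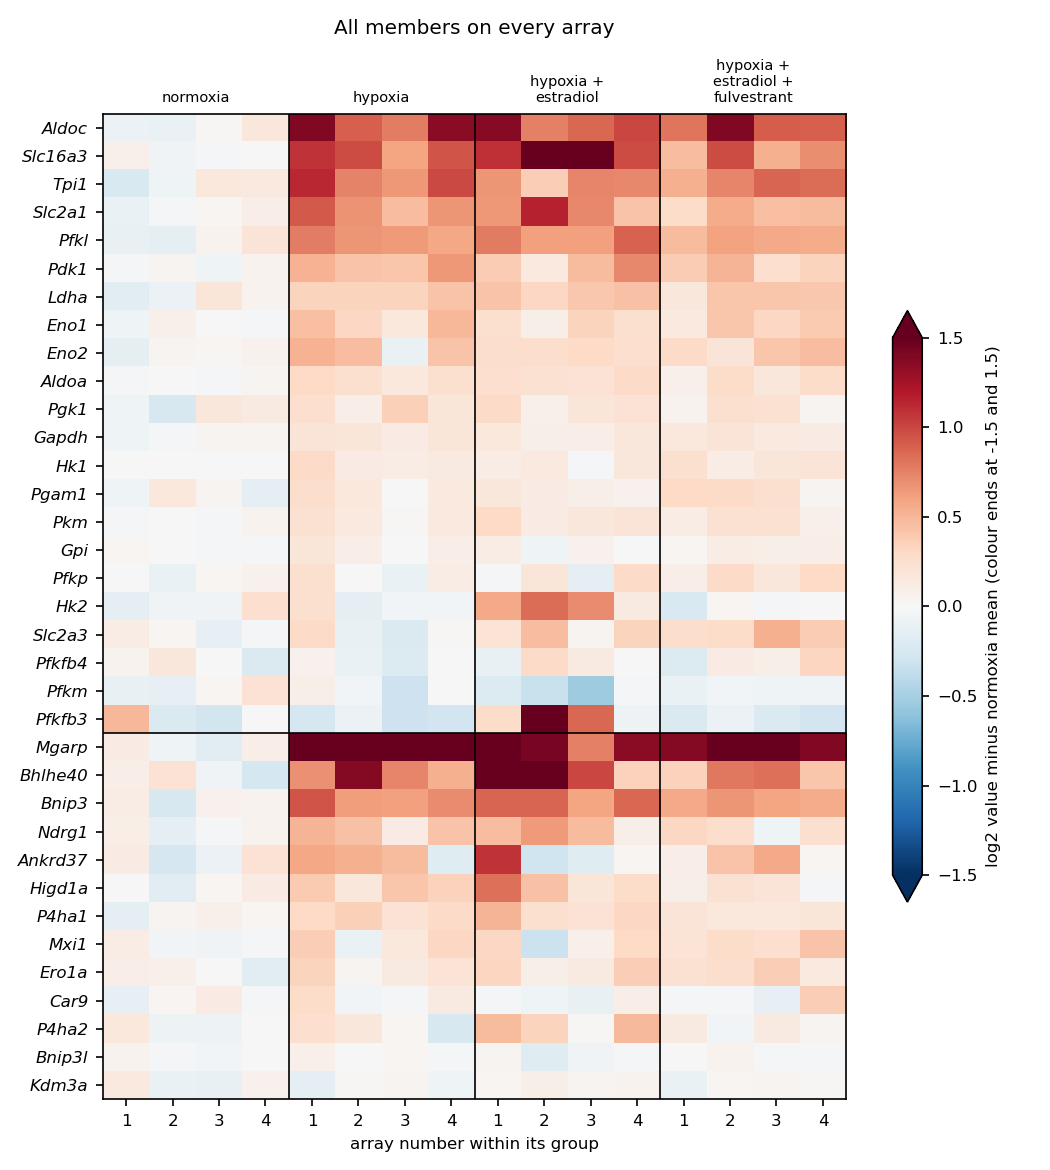
Log2 value of each of the 35 genes on each of the 16 arrays minus that gene's normoxia mean (colour, ended at -1.5 and 1.5), glucose metabolism above the horizontal line and other targets below it. Aldoc, Tpi1, Pfkl, Bnip3 and Mgarp are raised on every array of the 3 hypoxic groups, and Slc16a3, Hk2 and Pfkfb3 stand out on estradiol arrays 2 and 3.

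Related genes outside the set were taken from lists of the same pathways. Of 30 further genes of glycolysis, glycogen and glucose transport, 0 were called higher with hypoxia and 2 lower. These were Pfkfb1, an isoform of the bifunctional enzyme (-0.80 ± 0.14, adjusted p = 0.00353), and the muscle enolase Eno3 (-0.50 ± 0.12, adjusted p = 0.0281). The list median was 0.09, and 23 of the 30 differences were positive. At an unadjusted p below 0.05, 6 of the 30 were higher and 2 lower, against 1663 and 1302 of all 14506 genes. Markers of heart and skeletal muscle lay unevenly in the normoxia group, at -0.733, -0.718, 0.273 and 1.18 on arrays 1 to 4 as the mean over 10 genes, and at -0.685 to -0.309 in hypoxia. Their part in the Eno3 value was not tested. Of 12 genes of the pentose phosphate pathway and gluconeogenesis 0 were called by limma, with 1 higher at an unadjusted p below 0.05. Of 21 genes that carry pyruvate into and around the citric acid cycle 0 were called, with 1 higher and 1 lower at an unadjusted p below 0.05, and the median was 0.00. Of 36 further hypoxia-inducible factor targets 4 rose and 0 fell: Hmox1, heme oxygenase (0.87 ± 0.24, adjusted p = 0.0472), the collagen lysyl hydroxylases Plod2 (0.80 ± 0.11, adjusted p = 5.82e-04) and Plod1 (0.50 ± 0.13, adjusted p = 0.0372), and the cytokine Mif (0.57 ± 0.15, adjusted p = 0.0365). At an unadjusted p below 0.05, 11 of the 36 were higher and 3 lower. Without normoxia array 4, Plod2 was still called, and Hmox1 (adjusted p = 0.0941), Plod1 (adjusted p = 0.069) and Mif (adjusted p = 0.0703) were not. In that fit Pfkfb1 and Eno3 were still lower, and 1 gene each of the glycolysis and pentose phosphate lists was called higher. Vegfa, the main angiogenic factor of this family, differed by -0.10 ± 0.07 (adjusted p = 0.421), and the vasodilator peptide gene Adm by -0.11 ± 0.17 (adjusted p = 0.768). Egln3, an oxygen-sensing hydroxylase, differed by 0.47 ± 0.21 (adjusted p = 0.213), and the vasoconstrictor gene Edn1 by 0.67 ± 0.37 (adjusted p = 0.33).

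Markers of other cells moved in the same comparison. Of 8 endothelial markers 2 were higher and 1 lower, with array means from 0.111 to 0.221 in hypoxia against at most 0.0419 in normoxia. Of 9 erythroid markers 1, Hemgn, was called higher, and their mean stood 1.49, 1.17, -0.02 and 1.28 above normoxia on hypoxia arrays 1 to 4. Hypoxia array 3, with erythroid markers at the normoxia level, was the lowest hypoxia array for 11 of the 14 members that rose. It was also the lowest of its group for markers of alveolar macrophages (0.283), neutrophils (-0.734) and cell division (0.0603). For endothelial markers (0.221) and those of heart and skeletal muscle (-0.309) it was the highest, and for the other marker lists it lay in between. It lay above every normoxia array for all 14, which were called in this same comparison. Of 10 alveolar macrophage markers 5 were higher, with array means from 0.283 to 0.819 above normoxia. Of 8 smooth muscle markers 3 were higher (0.249 to 0.514), and of 14 lymphocyte markers 9 were lower (-0.865 to -0.533). Without normoxia array 4, limma called 0 of the erythroid and 7 of the lymphocyte markers, and of the endothelial ones 2 higher and 0 lower. The part of endothelial and erythroid cells, macrophages, smooth muscle and lymphocytes in the members' values was not tested.

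**Figure D4:**
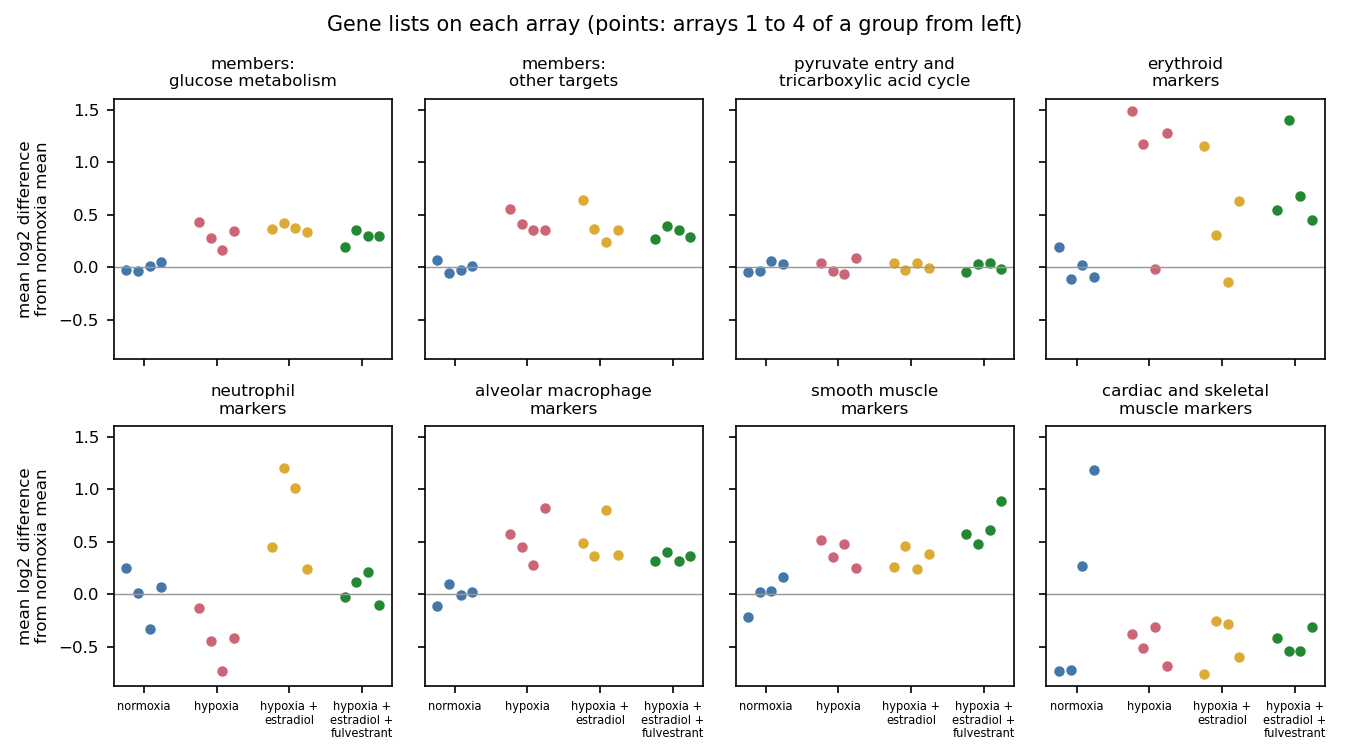
Mean log2 difference from the normoxia mean over the genes of each list, on every array (points, arrays 1 to 4 of each group from left). The glucose members lie between 0.16 and 0.432 on the hypoxia arrays and the other targets between 0.349 and 0.553, while the citric acid cycle list stays between -0.0702 and 0.083. The erythroid list falls to -0.0212 on hypoxia array 3, and the neutrophil list is highest on estradiol arrays 2 and 3, at 1.20 and 1.01.

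The count of 14 depended on single arrays. Without normoxia array 1, or without hypoxia array 1, it was 9: Pfkl, Aldoc, Tpi1, Ldha, Slc2a1, Slc16a3, Pdk1, Bnip3 and Mgarp. Those 9 were called in all 8 fits that each left out 1 array of the comparison. Aldoa was called in 6 of the 8, Eno1 and P4ha1 in 5, Gapdh in 2 and Bhlhe40 in 0. Without normoxia array 4, whose labels disagree, 12 were called, all but Gapdh and Bhlhe40, and with that array counted as hypoxia only Pfkl was called.

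Estradiol added to hypoxia moved 0 of the 35 past the threshold in limma's test against hypoxia alone, where 0.31% of all genes were called higher and 0.462% lower. At an unadjusted p below 0.05, 5 of the 35 members were higher and 2 lower, against 1001 and 1334 of all 14506 genes. The median difference was 0.01, against -0.02 over all genes. This comparison shares the hypoxia arrays with the one above, and the values are set side by side without a test of their relation. Of the 14 members that rose with hypoxia, Pfkl differed by 0.06 (95% interval -0.11 to 0.23), Bnip3 by 0.08 (-0.12 to 0.27), Slc2a1 by 0.06 (-0.21 to 0.33), Ldha by 0.04 (-0.12 to 0.20) and Pdk1 by -0.08 (-0.28 to 0.13). Bhlhe40 differed by 0.27, P4ha1 by 0.03, Aldoa by 0.01, Gapdh by -0.04, Aldoc by -0.11 and Eno1 by -0.13. Mgarp differed by -0.67, with an interval from -1.16 to -0.17 (adjusted p = 0.187), and Tpi1 differed by -0.26 (adjusted p = 0.304). Of 9 erythroid markers limma called 0 here, but all 9 differences were negative (median -0.51), as were 8303 of all 14506 genes. The erythroid mean stood at 1.15, 0.309, -0.141 and 0.632 from normoxia on estradiol arrays 1 to 4. The part of erythroid cells in the members' values was not tested.

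The largest positive values among the members belonged to 3 genes of glucose metabolism. Of these, Hk2 and Pfkfb3 were singled out after their values were seen. Pfkfb3 read 10.07, 11.39, 10.66 and 9.72 on the estradiol arrays and 9.58, 9.70, 9.57 and 9.51 with fulvestrant, against 9.49 to 9.71 in hypoxia alone. Estradiol array 4 was barely above the hypoxia arrays and array 2 far above them, and Pfkfb3 was the 1 member whose estradiol arrays all lay above hypoxia, which held for 3.19% of all genes. No member had all estradiol arrays lower (0 of 35, against 3.46% of all genes). Its difference was 0.90 ± 0.26 (adjusted p = 0.108). Hk2 read 8.75, 9.03, 8.90 and 8.32 with estradiol and 7.96, 8.22, 8.16 and 8.18 with fulvestrant. Estradiol array 4 lay within the hypoxia range of 8.04 to 8.43, and the other estradiol arrays were above all other arrays of the study. Its difference was 0.56 ± 0.13 (adjusted p = 0.0596). Slc16a3 differed by 0.53 ± 0.18 (adjusted p = 0.172). Slc2a3 read 8.71 ± 0.18 (SD, n = 4) with estradiol against 8.44 ± 0.22 in hypoxia. P4ha2, of the other targets, read 9.31 ± 0.22 against 9.04 ± 0.22, and neither was called.

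Neutrophil markers were highest on the same arrays. Of 13 markers 7 were higher with estradiol than in hypoxia. The mean of the 13 stood 0.454, 1.20, 1.01 and 0.246 above normoxia on estradiol arrays 1 to 4, against -0.734 to -0.132 in hypoxia and -0.101 to 0.217 with fulvestrant. Without estradiol arrays 2 and 3, 0 of the 13 were called. Only estradiol arrays 1 and 4 then remained, whose means lay above every hypoxia array, and a lost call there can also come from lower power. Without estradiol arrays 2 and 3 the differences from hypoxia were 0.35 for Hk2 (adjusted p = 0.507), 0.34 for Pfkfb3 (adjusted p = 0.558) and 0.13 for Slc16a3 (adjusted p = 0.799), and 0 members were called. Without estradiol array 4, all 3 genes were called, Hk2 at 0.70 (adjusted p = 0.0113), Pfkfb3 at 1.15 (adjusted p = 0.023) and Slc16a3 at 0.69 (adjusted p = 0.0464). That array had the lowest values of its group for these 3 genes and for the neutrophil markers, so leaving it out widened the differences. Of the 8 fits that each left out 1 array compared, this was the only 1 in which any of the 3 was called. The part of neutrophils in these values was not tested. Of the further targets, Hif3a, a hypoxia-inducible factor subunit, rose with estradiol by 0.96 ± 0.19 (adjusted p = 0.0362), or differed by 0.87 ± 0.24 without estradiol arrays 2 and 3 (adjusted p = 0.269), after a difference of -0.54 ± 0.19 between hypoxia and normoxia (adjusted p = 0.104). Of the 36 further targets limma called 1 higher and 0 lower. At an unadjusted p below 0.05, 3 of the 36 were higher and 8 lower, against 1001 and 1334 of all 14506 genes. Vegfa (-0.12 ± 0.07, adjusted p = 0.37), Adm (-0.50 ± 0.17, adjusted p = 0.183), Egln3 (-0.07 ± 0.21, adjusted p = 0.899) and Edn1 (-0.04 ± 0.37, adjusted p = 0.967) did not pass. Limma called 0 of the 30 further glycolysis genes (4 higher and 4 lower unadjusted), 0 of the 12 pentose phosphate and gluconeogenesis genes (1 and 2), and 0 of the 21 citric acid cycle genes (2 and 1).

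**Figure D5:**
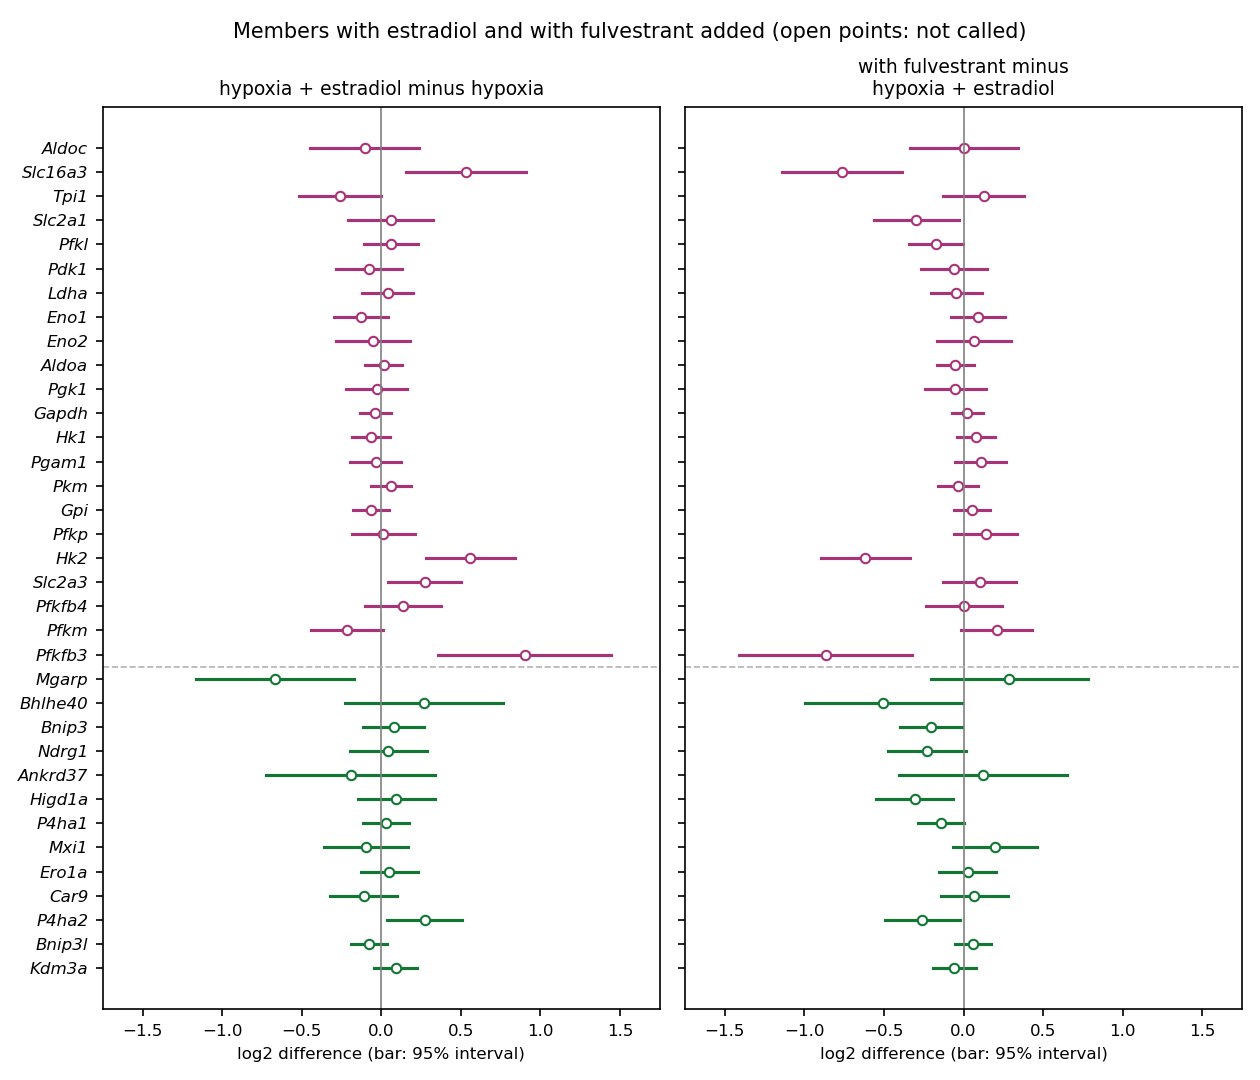
Log2 differences with 95% intervals for the 35 genes, estradiol against hypoxia alone (left) and fulvestrant with estradiol against estradiol (right). Every point is open because 0 passed an adjusted p of 0.05. Pfkfb3, Hk2 and Slc16a3 lie at 0.90, 0.56 and 0.53 on the left and at -0.87, -0.62 and -0.76 on the right, in comparisons that share the estradiol arrays.

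Fulvestrant given with estradiol moved 0 of the 35 past the threshold in limma's test against estradiol, where 0.0207% of all genes were called higher and 0.0276% lower. At an unadjusted p below 0.05, 0 of the 35 members were higher and 9 lower, against 1098 and 1044 of all 14506 genes. The median difference over the members was 0.00. In 4 members, Pfkfb3, Hk2, Pfkl and P4ha1, every fulvestrant array lay below every estradiol array, which held for 4.27% of all genes. The reverse was seen in 0 members and in 4.78% of all genes. The largest differences were -0.87 ± 0.26 for Pfkfb3 (adjusted p = 0.127), -0.76 ± 0.18 for Slc16a3 (adjusted p = 0.0783), -0.62 ± 0.13 for Hk2 (adjusted p = 0.0638) and -0.50 ± 0.23 for Bhlhe40 (adjusted p = 0.331). The other 5 were Higd1a (-0.31 ± 0.11, adjusted p = 0.217), Slc2a1 (-0.30 ± 0.13, adjusted p = 0.283), P4ha2 (-0.26 ± 0.11, adjusted p = 0.289), Bnip3 (-0.21 ± 0.09, adjusted p = 0.306) and Pfkl (-0.18 ± 0.08, adjusted p = 0.324). Without estradiol array 4, Hk2, Slc16a3 and Pfkfb3 fell by 0.76, 0.92 and 1.11 in log2 (adjusted p = 0.00676, 0.0151 and 0.0246). That array was the lowest of its group for all 3 genes, and no other of the 8 fits without 1 array called them. Without estradiol arrays 2 and 3, which leaves only 2 estradiol arrays, the 3 genes differed by -0.41, -0.36 and -0.30 (adjusted p = 0.405, 0.451 and 0.607). Aldoc, at 0.00 (95% interval -0.34 to 0.34), and Ldha, at -0.05 (-0.21 to 0.12), had intervals around 0. Of 13 neutrophil markers limma called 0 here, with 8 lower at an unadjusted p below 0.05. Of the related lists limma called 0 of 36 further targets (3 higher and 11 lower unadjusted), 0 of 30 glycolysis genes (2 and 4), 0 of 12 pentose phosphate and gluconeogenesis genes (0 and 3) and 0 of 21 citric acid cycle genes (1 and 1).

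Both drug groups were also set against normoxia, with whose arrays the hypoxia comparison is shared. With estradiol 15 members were higher, 9 glucose genes and 6 others, and 0 lower (all genes 2.87% and 2.34%). Of the 14 that rose with hypoxia alone, Eno1 (0.23 ± 0.08, adjusted p = 0.135) and Gapdh (0.13 ± 0.05, adjusted p = 0.134) did not pass here, while Hk2 (0.56 ± 0.13, adjusted p = 0.0225), Higd1a (0.43 ± 0.11, adjusted p = 0.0408) and Ndrg1 (0.42 ± 0.12, adjusted p = 0.0462) did. Slc16a3 stood at 1.43 ± 0.18 or 2.70-fold (adjusted p = 2.34e-04) and Mgarp at 1.35 ± 0.23 (adjusted p = 0.00356). Without estradiol arrays 2 and 3 their order turned, with Slc16a3 at 1.03 ± 0.14 (adjusted p = 0.00138) and Mgarp at 1.60 ± 0.26 (adjusted p = 0.00487). Bhlhe40 stood at 1.10 ± 0.23 (adjusted p = 0.0135). The count was 14 without normoxia array 4, 8 with that array counted as hypoxia, and 7 with only the arrays compared in the fit. Without estradiol arrays 2 and 3 it was 12, with P4ha2 added and Hk2, Aldoa, Ndrg1 and Bhlhe40 not called. Of the 36 further targets 6 were higher, led by the repressor Bhlhe41 (1.49 ± 0.25, adjusted p = 0.00315), and 2 lower, the lipase inhibitor Angptl4 (-0.80 ± 0.21, adjusted p = 0.0383) and the secreted glycoprotein Stc2 (-0.53 ± 0.12, adjusted p = 0.0186). Without estradiol arrays 2 and 3, Bhlhe41 (1.08 ± 0.27, adjusted p = 0.0545) and Angptl4 (-0.73 ± 0.25, adjusted p = 0.177) were not called, and Stc2 was (adjusted p = 0.00221).

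With estradiol and fulvestrant 7 members were higher than in normoxia, 5 glucose genes and 2 others, and 0 lower (all genes 1.97% and 0.993%). They were Mgarp (1.63 ± 0.23, adjusted p = 7.73e-04), Aldoc (0.998 ± 0.161, adjusted p = 0.00194), Tpi1 (0.74 ± 0.12, adjusted p = 0.00203), Bnip3 (0.59 ± 0.09, adjusted p = 0.00139), Pfkl (0.55 ± 0.08, adjusted p = 9.44e-04), Ldha (0.35 ± 0.08, adjusted p = 0.0176) and Eno1 (0.32 ± 0.08, adjusted p = 0.0461). The count was 6 without normoxia array 4, with Eno1 lost, and 1 with that array counted as hypoxia. With only the arrays compared in the fit it was 13, against 7 for estradiol fitted in the same way. The order of the 2 counts, 7 and 15 in the main fit, thus turned. With array weights it was 13, and without estradiol arrays 2 and 3 in the shared fit it was 10. The other 7 of the 14 had adjusted p-values from 0.0536 for Pdk1 to 0.222 for P4ha1. The median difference from normoxia over the 35 members was 0.21, against 0.22 in hypoxia alone and 0.26 with estradiol. At an unadjusted p below 0.05, 22 of the 35 members were higher and 0 lower, against 1236 and 977 of all 14506 genes. In 21 of the 35 members every fulvestrant array lay above every normoxia array, and in 0 below. This held for 1035 and 755 of all 14506 genes. Of the 36 further targets 1 was called, Plod2 (0.73 ± 0.11, adjusted p = 0.00145). Of 8 smooth muscle markers 6 were higher in this comparison, with array means from 0.481 to 0.893 above normoxia, and their part in the members' values was not tested. Set directly against hypoxia alone, the fulvestrant group had 0 of 35 members called by limma, where 0% of all genes were called higher and 0% lower. At an unadjusted p below 0.05, 1 member, Slc2a3, was higher (0.37 ± 0.11, adjusted p = 0.57), and 445 of all 14506 genes were higher and 564 lower. Slc2a3 read 8.81 ± 0.12 (SD, n = 4) with fulvestrant and 8.71 ± 0.18 with estradiol but no fulvestrant, against 8.44 ± 0.22 in hypoxia. Mgarp had the largest negative value of the fulvestrant group against hypoxia, -0.38 ± 0.23 (adjusted p = 0.791).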

How the data were processed

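Lung RNA of 16 rats was hybridised to 1 array each. The deposited values are on a log2 scale, and RMA and Partek are named, with no versions, per the submitters' processing notes; the scanner files were not used here. RMA puts all arrays on one distribution and compresses small differences of dim probes. The table held 29214 probe sets, of which 15310 carried 1 symbol, 323 several and 13581 none, giving 14506 genes, 14480 of them with a RefSeq gene ID. Of the members, 7 had several probe sets. Groups followed the titles.

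Values of all genes were fitted with 4 group means over 16 arrays (limma 3.58.1, R 4.3.3, lmFit and eBayes, two-sided), and p-values were adjusted by Benjamini-Hochberg over all 14506 genes. Called means an adjusted p below 0.05. No batch is given and replicates are separate animals. The number of arrays limits the precision.

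The members and lists were chosen with earlier results of these data known. All members are accounted for in hypoxia against normoxia, and for the other comparisons the text gives values of some of them. Array values were printed for members called in hypoxia against normoxia, estradiol against hypoxia or fulvestrant against estradiol, and for Hk2 and Pfkfb3, added after their values were seen. In the further lists called genes were named, at most 6 per list, and always Vegfa, Adm, Egln3 and Edn1. The fit was tested on simulated data. Alternatives were array centring, repeated quantile normalization, a filter on dim genes, other probe set rules, other fits, array weights, normoxia array 4 moved or left out, and leaving out arrays. Genes and marker lists outside the members were recomputed without normoxia array 4 and without estradiol arrays 2 and 3, an alternative chosen after seeing the data. The latter leaves only 2 estradiol arrays, so fewer calls there can also come from lower power.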

Additional observations from a re-analysis of the deposited data

Results flagged for a closer look

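In 4 of the 64 member and group combinations examined, 1 array lay far from the other 3 of its group by Dixon's test; chance flags about 1 in 20. Ldha stood at 13.31 on hypoxia array 4, with the others at 13.21, and at 13.05 on fulvestrant array 1, with the others at 13.28 to 13.29. Bnip3 stood at 10.71 on normoxia array 2, with the others at 11.01 to 11.07, and at 11.54 on estradiol array 3, with the others at 11.81 to 11.83. Both genes kept their hypoxia call whichever of the 8 arrays compared was omitted.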

How the results depend on the processing

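In hypoxia against normoxia the 14 members called became 1 with normoxia array 4 counted as hypoxia, and 9 to 15 when single arrays were left out. With estradiol against hypoxia, 0 became 1, Hk2, without the dimmest 0.25 of genes, and 0 to 3 without single arrays. Fulvestrant against estradiol gave 0 to 3 without single arrays. Estradiol against normoxia went from 15 to 7 with only the arrays compared, to 8 with normoxia array 4 counted as hypoxia, and to 10 to 16 without single arrays. Fulvestrant against normoxia went from 7 to 13 with only the arrays compared, to 13 with array weights, to 1 with normoxia array 4 counted as hypoxia, and to 5 to 8 without single arrays. The causes were not tested. All other alternatives run kept these counts within 1.5 times, and fulvestrant against hypoxia stayed at 0. Within that margin, 2 of the 14 hypoxia calls were lost with array centring and 2 with repeated quantile normalization. All probe sets fitted, and only the arrays compared, also lost 2 each. Limma's trend and robust moderation lost 1. Array weights and the mean of a gene's probe sets kept every one of these calls. Of 14 named differences called, 0 changed sign in any alternative, and of 34 not called, 10 did. No paired analysis was possible because the labels give no replicate number shared between groups.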
